A study of Mus musculus with 6 samples.

Results

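The genes of voltage-gated sodium and calcium channels were examined in the hippocampus of Ahr-KO and wild-type mice. They were taken by gene symbol. Every probe set that the platform annotation pairs with exactly 1 symbol starting with Scn and a digit counted as a sodium channel gene, and one starting with Cacna1, Cacna2d or Cacnb as a calcium channel gene. This gave 28 genes of the 22180 tested, 11 for sodium and 17 for calcium channels, read by 30 probe sets. The brightest probe set stands for Cacnb2 and Cacnb4, the 2 genes that have a pair of them. No measured value entered the rule apart from that choice. Other genes of these families are not analysed here.

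Hippocampi came from 3 Ahr-KO and 3 wild-type mice, each on an array of its own. The product of Ahr is the aryl hydrocarbon receptor, which moves to the nucleus when it binds a ligand and turns genes on. Which allele the Ahr-KO mice carry, and the strain, age and sex of both groups, are not given in the labels, which name the genotype and the tissue. The deposited values are log2 signals after RMA, a normalization that gives all arrays the same overall distribution, so 1 unit is a factor of 2. Differences are Ahr-KO minus wild type.

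Voltage-gated sodium channels open on depolarization and carry the upstroke of the action potential, which in most neurons starts at the axon initial segment. Each has a large pore-forming alpha subunit and smaller beta subunits. Voltage-gated calcium channels turn depolarization into calcium entry, which releases transmitter at terminals, shapes dendritic firing and signals to the nucleus. Their alpha1 pore subunit sets the type of current, and beta and alpha2delta subunits bring the channel to the membrane and tune it.

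The arrays had a similar overall level. Medians over the genes tested lay between 6.49 and 6.52 log2. Ahr, the targeted gene, read 6.62, 6.91 and 6.74 log2 on the Ahr-KO arrays, against 7.68, 7.50 and 7.44 log2 on the wild-type arrays. It was lower on every Ahr-KO array (difference -0.78 ± 0.10 log2 SE, 95% interval -1.02 to -0.55), although its adjusted p over all genes was 0.320. The neuronal marker genes Rbfox3, Snap25, Syt1, Tubb3 and Slc17a7 averaged 11.65 to 11.78 log2 on the Ahr-KO arrays and 11.66 to 11.74 log2 on the wild-type arrays. They do not tell the hippocampus from other brain regions. Ahr-KO array 1 and wild-type array 2 had high choroid plexus genes, a tissue that lies against the hippocampus. The mean of 6 such genes was 8.33 and 7.81 log2 there, against 6.19 to 6.33 log2 on the other 4 arrays. Markers of hippocampal subfields were averaged too. The difference was 0.14 log2 for dentate granule cells (4 genes), -0.12 for CA1 (3 genes) and 0.15 for CA3 (3 genes). The array means of the genotypes overlapped for each subfield. The part of subfield content in the channel gene values was not tested. Bulk tissue cannot tell fewer cells of a type from less RNA per cell.

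No channel gene passed the test over all genes. Of the 28 genes 0 had an adjusted p under 0.05, as did 0% of all genes tested (limma), and the lowest adjusted p among them was 0.770. At an unadjusted p under 0.05 there were 2 of 28, or 7.14%, beside 6.18% of all genes. Of the sodium channel genes 0 were higher and 1 was lower in Ahr-KO at this level, and of the calcium channel genes 1 was higher and 0 were lower. Over all genes 3.53% were higher and 2.65% lower. The 2 genes were Scn1a, lower in Ahr-KO, and Cacna1s, higher in Ahr-KO. The 2 groups of arrays did not overlap for 3 of the 28 genes, or 10.7%, beside 11.9% of all genes. These were Scn1a and Cacna1s again and Cacna2d3, lower in Ahr-KO. All these shares are close to those over all genes.

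Differences were small in both families. The sodium channel genes had a median difference of -0.04 log2, with 4 of 11 higher and 7 lower on average in Ahr-KO, and the calcium channel genes a median of 0.0052 log2, with 11 of 17 higher and 6 lower. Over all genes the median was 0.0019 log2 and 50.7% had a higher mean in Ahr-KO. The difference was under 0.1 log2 in size for 20 of the 28 genes, or 71.4%, as it was for 62.4% of all genes. For 27 of the 28 the 95% interval lay within 0.5 log2 of zero on both sides, as it did for 91.5% of all genes. The gene with the wider interval was Scn4b. Missing the threshold does not show that a gene is the same in both genotypes, and the interval gives the sizes that these 6 arrays leave possible.

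**Figure D1:**
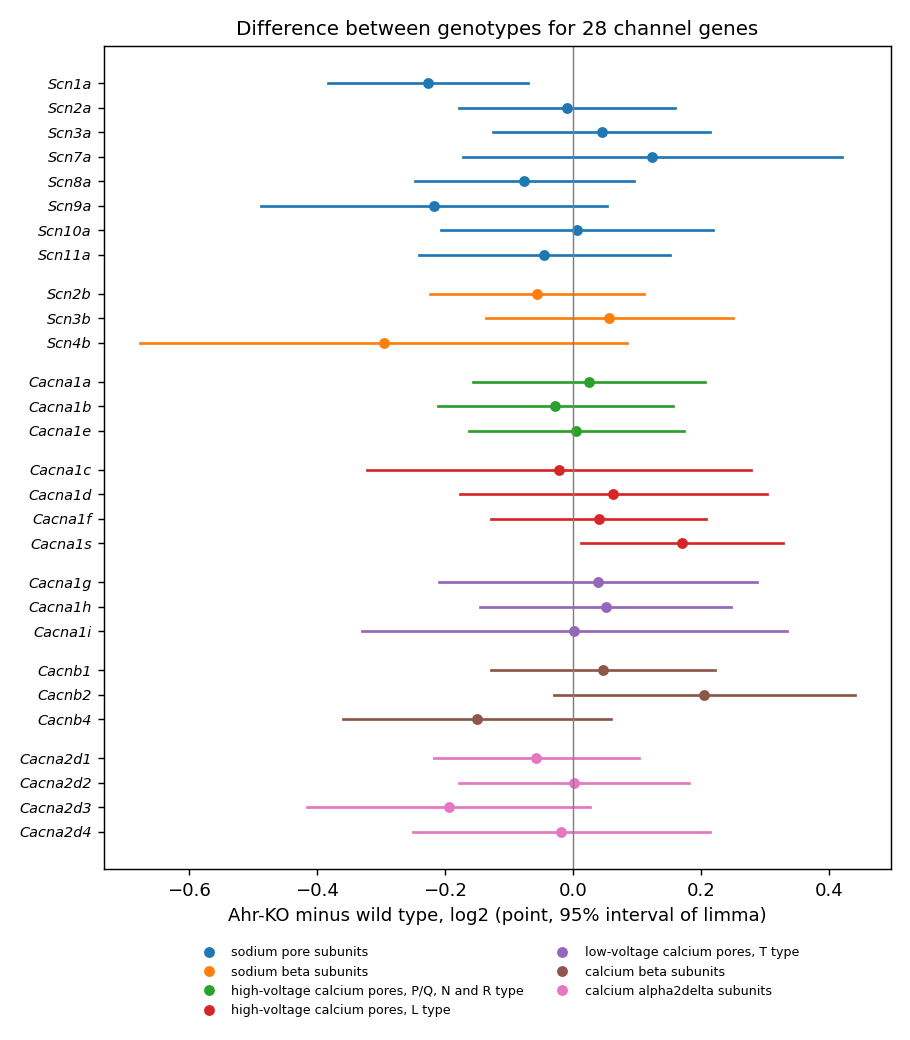
Difference between genotypes (x axis, Ahr-KO minus wild type, log2) for each of the 28 channel genes (y axis), with the 95% interval from limma and colours for 7 subunit groups. The intervals of Scn1a (-0.38 to -0.07) and Cacna1s (0.01 to 0.33) do not reach zero, and that of Scn4b is the widest (-0.68 to 0.08).

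**Figure D2:**
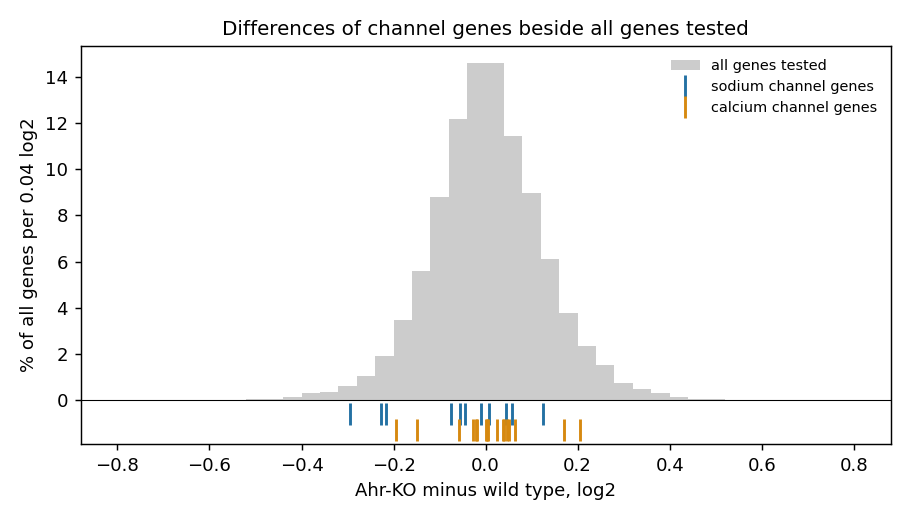
Distribution of the difference between genotypes (x axis, Ahr-KO minus wild type, log2) over all genes tested (grey, percent of genes per bin), with a tick for each sodium and each calcium channel gene below. The channel genes lie between -0.30 and 0.21 log2, among the bulk of all genes.

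Ahr is a DNA-binding factor, so the promoters of the 3 genes without overlap between genotypes are shown, and beside them that of Cacna1b, whose window holds the most copies of the receptor's core motif among the channel genes. Each window covers 250 bases before and 50 after the start of the gene, from RefSeq on GRCm38.p6, written 5′ to 3′ as the table gives it. Capitals mark GCGTG, the core of the sequence that the receptor binds with its partner ARNT, or its reverse complement CACGC. It was the only motif searched, on both strands.
Scn1a, chr2:66440788-66441087, minus strand: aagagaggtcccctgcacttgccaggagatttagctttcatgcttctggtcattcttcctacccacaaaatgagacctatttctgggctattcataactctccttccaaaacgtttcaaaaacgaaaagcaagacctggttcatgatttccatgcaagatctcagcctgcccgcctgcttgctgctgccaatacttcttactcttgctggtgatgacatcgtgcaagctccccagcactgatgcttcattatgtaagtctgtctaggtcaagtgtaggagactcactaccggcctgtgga
Cacna2d3, chr14:29721815-29722114, minus strand: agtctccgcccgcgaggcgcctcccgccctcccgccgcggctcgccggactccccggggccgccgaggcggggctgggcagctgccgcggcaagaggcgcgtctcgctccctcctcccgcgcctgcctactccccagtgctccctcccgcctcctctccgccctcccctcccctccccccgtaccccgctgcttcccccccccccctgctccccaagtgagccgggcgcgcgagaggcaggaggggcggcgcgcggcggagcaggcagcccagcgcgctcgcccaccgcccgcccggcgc
Cacna1s, chr1:136052561-136052860, plus strand: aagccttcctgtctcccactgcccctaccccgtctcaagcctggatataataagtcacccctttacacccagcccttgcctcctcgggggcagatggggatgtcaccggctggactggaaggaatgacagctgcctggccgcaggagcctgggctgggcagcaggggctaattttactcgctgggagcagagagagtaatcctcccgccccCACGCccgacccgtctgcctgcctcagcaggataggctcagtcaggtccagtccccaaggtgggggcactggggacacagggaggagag
Cacna1b, chr2:24763103-24763402, minus strand: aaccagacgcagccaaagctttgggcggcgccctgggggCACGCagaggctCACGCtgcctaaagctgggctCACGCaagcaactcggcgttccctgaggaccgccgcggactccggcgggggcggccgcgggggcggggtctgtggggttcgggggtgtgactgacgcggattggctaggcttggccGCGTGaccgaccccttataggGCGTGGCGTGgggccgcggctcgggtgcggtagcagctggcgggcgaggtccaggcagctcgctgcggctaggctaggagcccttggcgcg
The windows of Scn1a and Cacna2d3 hold 0 copies, that of Cacna1s 1 and that of Cacna1b 6. A count of 6 or more is found in 0.146% of the 32851 windows in the table. Cacna1b was picked as the highest of 31 channel gene windows, so this share does not measure how unusual it is. Its window is 72.3% G or C. Cacna1b differed by -0.03 log2 between genotypes (95% interval -0.21 to 0.16). Of the 22 channel genes with a window, 12 (54.5%) hold the motif in at least 1 window, and 10 do not. Of the 16990 tested genes with a window, 41.9% hold it. These shares were not matched for base composition or for the number of windows per gene. Cacna1a, Cacna1g, Cacna1h, Cacna2d4, Scn3a and Scn3b are those without an entry. The bases show only where the letters occur, and binding was not measured.

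The sodium channel pores of central neurons are Scn1a, Scn2a, Scn3a and Scn8a, and of these Scn1a was the one whose genotypes did not overlap. Scn1a encodes Nav1.1, the main sodium channel of fast-spiking parvalbumin interneurons, and loss of its function causes the epilepsy Dravet syndrome in humans. It read 9.54, 9.50 and 9.48 log2 on the Ahr-KO arrays, against 9.74, 9.75 and 9.70 log2 on the wild-type arrays. All Ahr-KO arrays lay below all wild-type arrays, and the arrays of each genotype lay close together. Scn1a averaged 9.50 ± 0.03 log2 in Ahr-KO and 9.73 ± 0.03 log2 in wild type (SD, n = 3 each), 1.17-fold lower in Ahr-KO, with a difference of -0.23 ± 0.07 log2 (SE, 95% interval -0.38 to -0.07, limma unadjusted p = 0.00997, adjusted p = 0.770). The gene did not pass over all genes. Its difference was -0.24 to -0.21 log2 over 14 alternative settings, with an unadjusted p under 0.05 in 14 of them and an adjusted p of 0.563 to 0.972.

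Scn1a was set beside markers of the cells that use it. Pvalb, the calcium buffer of fast-spiking interneurons, read 6.87, 7.28 and 7.15 log2 on the Ahr-KO arrays, against 7.64, 7.45 and 7.38 log2 on the wild-type arrays. Here too all Ahr-KO arrays lay below all wild-type arrays (difference -0.39 ± 0.12 log2 SE, 95% interval -0.66 to -0.12). Pvalb did not pass over all genes (limma unadjusted p = 0.0104, adjusted p = 0.770). Other interneuron genes ran otherwise. Gad1, an enzyme that makes GABA, had a difference of 0.14 log2, the peptide gene Sst 0.13, the transcription factor gene Lhx6 0.24, the vesicular GABA transporter Slc32a1 0.10 and Gad2, for a second GABA-making enzyme, -0.02. For Gad1, Sst and Lhx6 all Ahr-KO arrays lay above all wild-type arrays. Lhx6 had a 95% interval of 0.05 to 0.43 log2 and did not pass over all genes either (limma unadjusted p = 0.0181, adjusted p = 0.775). Of all genes 11.9% had no overlap between genotypes. The mean of Pvalb and these 5 genes was 8.98 to 9.07 log2 in Ahr-KO and 8.92 to 9.05 log2 in wild type, so the groups overlapped. The part of interneuron content in the Scn1a value was not tested.

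Scn2a encodes Nav1.2, a pore of excitatory neurons and their unmyelinated axons. It read 11.19, 11.16 and 11.17 log2 on the Ahr-KO arrays, against 11.10, 11.20 and 11.25 log2 on the wild-type arrays. The wild-type arrays spread on both sides of the Ahr-KO arrays, and the difference was -0.0095 ± 0.07 log2 (SE, 95% interval -0.18 to 0.16). Scn8a encodes Nav1.6, the pore of the mature initial segment and of nodes of Ranvier. It read 10.43, 10.38 and 10.35 log2 on the Ahr-KO arrays, against 10.43, 10.55 and 10.41 log2 on the wild-type arrays, with overlapping groups and a difference of -0.08 ± 0.07 log2 (SE, 95% interval -0.25 to 0.10). Scn3a encodes Nav1.3, which is most abundant in the brain before and around birth. It read 9.29, 9.34 and 9.31 log2 on the Ahr-KO arrays, against 9.27, 9.34 and 9.19 log2 on the wild-type arrays, with overlapping groups. Its difference was 0.04 ± 0.07 log2 (SE, 95% interval -0.12 to 0.21). For Scn2a, Scn3a and Scn8a, the adjusted p was 0.892 to 0.992 (limma).

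Scn1a, Scn2a, Scn3a, Scn7a and Scn9a lie near each other in the genome. In the RefSeq table Scn3a is next to Scn2a, then 3 other protein-coding genes follow, and Scn1a, Scn9a and Scn7a stand side by side. The direct neighbour Scn9a, for Nav1.7 of sensory and sympathetic neurons, read 6.01, 5.73 and 5.98 log2 on the Ahr-KO arrays, against 6.07, 6.33 and 5.96 log2 on the wild-type arrays. The groups overlapped, and the difference was -0.22 ± 0.12 log2 (SE, 95% interval -0.49 to 0.05). Without Ahr-KO array 2 it was -0.13, without wild-type array 2 it was -0.11 and without wild-type array 3 it was -0.30 log2, the last with an unadjusted p of 0.0489 and an adjusted p of 0.939 (limma). Scn7a, whose product Nax senses the sodium level, read 6.02, 6.06 and 5.84 log2 on the Ahr-KO arrays, against 5.96, 6.02 and 5.56 log2 on the wild-type arrays. It had a difference of 0.12 ± 0.13 log2 (SE, 95% interval -0.17 to 0.42). Wild-type array 3 was its lowest, and without that array the difference was -0.0192 log2, so the direction turned. Scn10a and Scn11a, the pores Nav1.8 and Nav1.9 of pain-sensing neurons, also stand side by side and had differences of 0.0065 (95% interval -0.21 to 0.22) and -0.04 (-0.24 to 0.15) log2. Their values were 4.24 to 4.54 and 4.10 to 4.32 log2 in Ahr-KO, against 4.30 to 4.38 and 4.16 to 4.28 log2 in wild type. Scn7a, Scn9a, Scn10a and Scn11a read below the median of the genes on all 6 arrays, and no detection calls were used here to tell their signal from background.

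The beta subunits of sodium channels anchor the pore to other proteins and change its gating. Scn2b, whose product is linked to the pore by a disulfide bond, read 10.36, 10.49 and 10.47 log2 on the Ahr-KO arrays, against 10.48, 10.48 and 10.53 log2 on the wild-type arrays. The groups overlapped (difference -0.06 ± 0.07 log2 SE, 95% interval -0.22 to 0.11). Scn3b read 11.29, 11.33 and 11.45 log2 on the Ahr-KO arrays, against 11.18, 11.36 and 11.35 log2 on the wild-type arrays, again with overlap (difference 0.06 ± 0.08 log2 SE, 95% interval -0.14 to 0.25). Scn4b, tied to the resurgent sodium current of fast-firing neurons, read 5.75, 6.37 and 6.40 log2 on the Ahr-KO arrays, against 6.58, 6.36 and 6.46 log2 on the wild-type arrays. It was above the median of the genes on 1 array only, wild-type array 1. Ahr-KO array 1 was far below the other 5, which overlapped. The difference was -0.30 ± 0.17 log2 (SE, 95% interval -0.68 to 0.08), and -0.41 to -0.085 log2 when single arrays were left out, the smallest without Ahr-KO array 1. Scn4b is strongly expressed in the striatum, and the 3 measured striatal markers of 5 averaged 6.001 to 6.235 log2 in Ahr-KO and 6.003 to 6.355 log2 in wild type. The single markers went different ways. Gpr6 (-0.37 log2) was lower and Drd2 (0.14 log2) higher on all Ahr-KO arrays, and Drd1 (-0.16 log2) overlapped. Gpr6 read below the median of the genes on all 6 arrays. Of all genes 11.9% had no overlap between genotypes. The part of neighbouring tissue in the value of Scn4b was not tested.

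**Figure D3:**
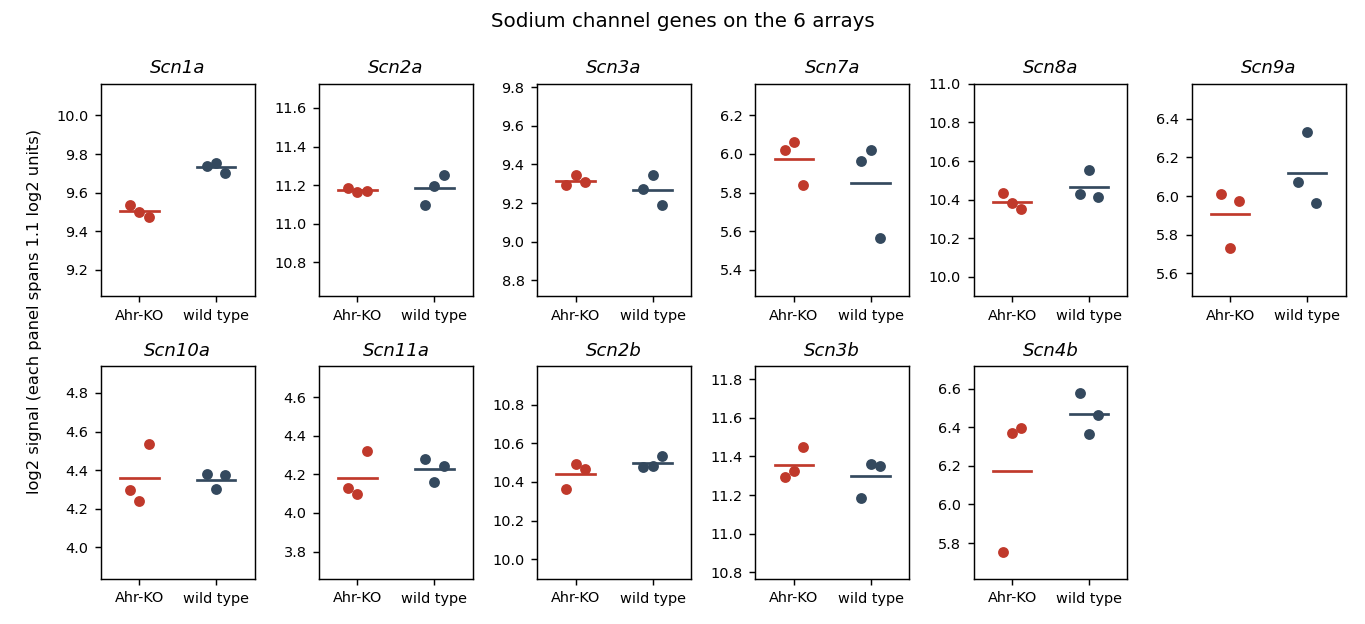
Log2 signal (y axis, each panel spanning 1.1 log2 units) of the 11 sodium channel genes on 3 Ahr-KO and 3 wild-type arrays, with points for arrays and lines for group means. Scn1a is the panel in which the 3 Ahr-KO points (9.48 to 9.54) lie below all wild-type points (9.70 to 9.75).

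The calcium channel pores of presynaptic terminals had a median size of difference of 0.03 log2, the smallest of the 7 subunit groups. Cacna1a, the pore of P/Q-type channels that trigger most fast transmitter release, read 9.47, 9.56 and 9.37 log2 on the Ahr-KO arrays, against 9.50, 9.43 and 9.39 log2 on the wild-type arrays (difference 0.03 ± 0.08 log2 SE, 95% interval -0.16 to 0.21). Cacna1b, the N-type pore that shares this work, read 9.48, 9.49 and 9.40 log2 on the Ahr-KO arrays, against 9.57, 9.51 and 9.37 log2 on the wild-type arrays (difference -0.03 ± 0.08 log2 SE, 95% interval -0.21 to 0.16). Cacna1e, the R-type pore of dendrites, spines and terminals, read 10.55, 10.54 and 10.43 log2 on the Ahr-KO arrays, against 10.51, 10.53 and 10.46 log2 on the wild-type arrays (difference 0.0052 ± 0.07 log2 SE, 95% interval -0.16 to 0.17). For each of these genes the genotypes overlapped, and the array-to-array range was wider than the difference. All 3 intervals lay between -0.21 and 0.21 log2.

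The L-type pores Cacna1c and Cacna1d couple depolarization of the cell body and dendrites to gene transcription. Cacna1c read 9.74, 9.38 and 9.48 log2 on the Ahr-KO arrays, against 9.43, 9.79 and 9.44 log2 on the wild-type arrays. Ahr-KO array 1 and wild-type array 2 stood above the other 4 arrays, so the spread lay within each genotype and the difference was -0.02 ± 0.13 log2 (SE, 95% interval -0.32 to 0.28). Cacna1d read 8.63, 8.34 and 8.39 log2 on the Ahr-KO arrays, against 8.43, 8.50 and 8.24 log2 on the wild-type arrays, with the same arrays on top and a difference of 0.06 ± 0.10 log2 (SE, 95% interval -0.18 to 0.30). These are the arrays with high choroid plexus genes. They were the highest 2 of 6 for Cacna1c, Cacna1d, Cacna1g and Scn8a, 4 of the 28 genes or 14.3%, beside 7.11% of all genes. They were the lowest 2 for Cacna1f, Cacna2d4, Cacnb4 and Scn4b, also 4 genes, beside 7.10% of all genes. Cacna1c averaged 9.77 log2 on them and 9.43 log2 on the other 4 arrays, a gap of 0.34 log2. Which tissue or cell the higher Cacna1c signal came from was not tested. Without both arrays the difference between genotypes of Scn1a was -0.23 log2.

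Cacna1s and Cacna1f are L-type pores best known outside the brain, in skeletal muscle and in the retina. Cacna1s read 5.59, 5.58 and 5.56 log2 on the Ahr-KO arrays, against 5.43, 5.35 and 5.44 log2 on the wild-type arrays. All Ahr-KO arrays lay above all wild-type arrays, by a difference of 0.17 ± 0.07 log2 (SE, 95% interval 0.01 to 0.33, limma unadjusted p = 0.0371, adjusted p = 0.800), 1.13-fold. It read below the median of the genes on all 6 arrays, and the muscle genes Ckm, Acta1 and Myh4 averaged 5.54 to 5.67 log2 in Ahr-KO and 5.61 to 5.83 log2 in wild type. Its unadjusted p stayed under 0.05 in 3 of 13 alternative settings, and leaving out any of the 6 arrays in turn raised it to between 0.0522 and 0.110. Cacna1f read 5.23 to 5.38 log2 in Ahr-KO and 5.26 to 5.29 log2 in wild type, likewise below those medians, with a difference of 0.04 ± 0.07 log2 (SE, 95% interval -0.13 to 0.21).

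T-type pores open at low voltage and drive burst firing. Cacna1g read 7.96, 7.83 and 7.65 log2 on the Ahr-KO arrays, against 7.76, 7.93 and 7.63 log2 on the wild-type arrays (difference 0.04 ± 0.11 log2 SE, 95% interval -0.21 to 0.29). Cacna1h read 9.01, 9.01 and 8.94 log2 on the Ahr-KO arrays, against 9.02, 9.01 and 8.79 log2 on the wild-type arrays (difference 0.05 ± 0.09 log2 SE, 95% interval -0.14 to 0.25). Cacna1i read 8.45, 8.73 and 8.42 log2 on the Ahr-KO arrays, against 8.80, 8.53 and 8.26 log2 on the wild-type arrays. The wild-type arrays were far apart, and its difference of 0.0024 ± 0.14 log2 (SE, 95% interval -0.33 to 0.33) was the least precise of the 3. In all 3 genes the groups overlapped, and wild-type array 3 was the lowest array.

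The beta subunits bind the pore from inside the cell and carry it to the membrane. Cacnb1 read 8.90, 8.99 and 8.91 log2 on the Ahr-KO arrays, against 8.97, 8.81 and 8.87 log2 on the wild-type arrays, with overlap and a difference of 0.05 ± 0.08 log2 (SE, 95% interval -0.13 to 0.22). Cacnb2 read 10.10, 9.81 and 10.04 log2 on the Ahr-KO arrays, against 9.66, 9.90 and 9.78 log2 on the wild-type arrays. Ahr-KO arrays 1 and 3 stood above all wild-type arrays while Ahr-KO array 2 lay among them, and the difference was 0.21 ± 0.10 log2 (SE, 95% interval -0.03 to 0.44, limma unadjusted p = 0.0792, adjusted p = 0.817). It was 0.14 to 0.29 log2 when single arrays were left out, with an unadjusted p of 0.0200 without Ahr-KO array 2 and 0.0452 without wild-type array 2 (limma). The second probe set of Cacnb2, dimmer with a mean of 5.40 log2 and below the median of the genes, differed by 0.09 log2. Cacnb4, whose loss makes the lethargic mouse ataxic and epileptic, read 9.57, 9.74 and 9.70 log2 on the Ahr-KO arrays, against 9.92, 9.67 and 9.86 log2 on the wild-type arrays. The groups overlapped, with wild-type array 2 among the Ahr-KO arrays, and the difference was -0.15 ± 0.09 log2 (SE, 95% interval -0.36 to 0.06). Its second probe set, dimmer with a mean of 5.74 log2 and below the median of the genes, differed by -0.18 log2. Without Ahr-KO array 1 or wild-type array 1 the difference of Cacnb4 was -0.10 log2, and without wild-type array 2 it was -0.22 log2, with an unadjusted p of 0.0427 and an adjusted p of 0.799 (limma).

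**Figure D4:**
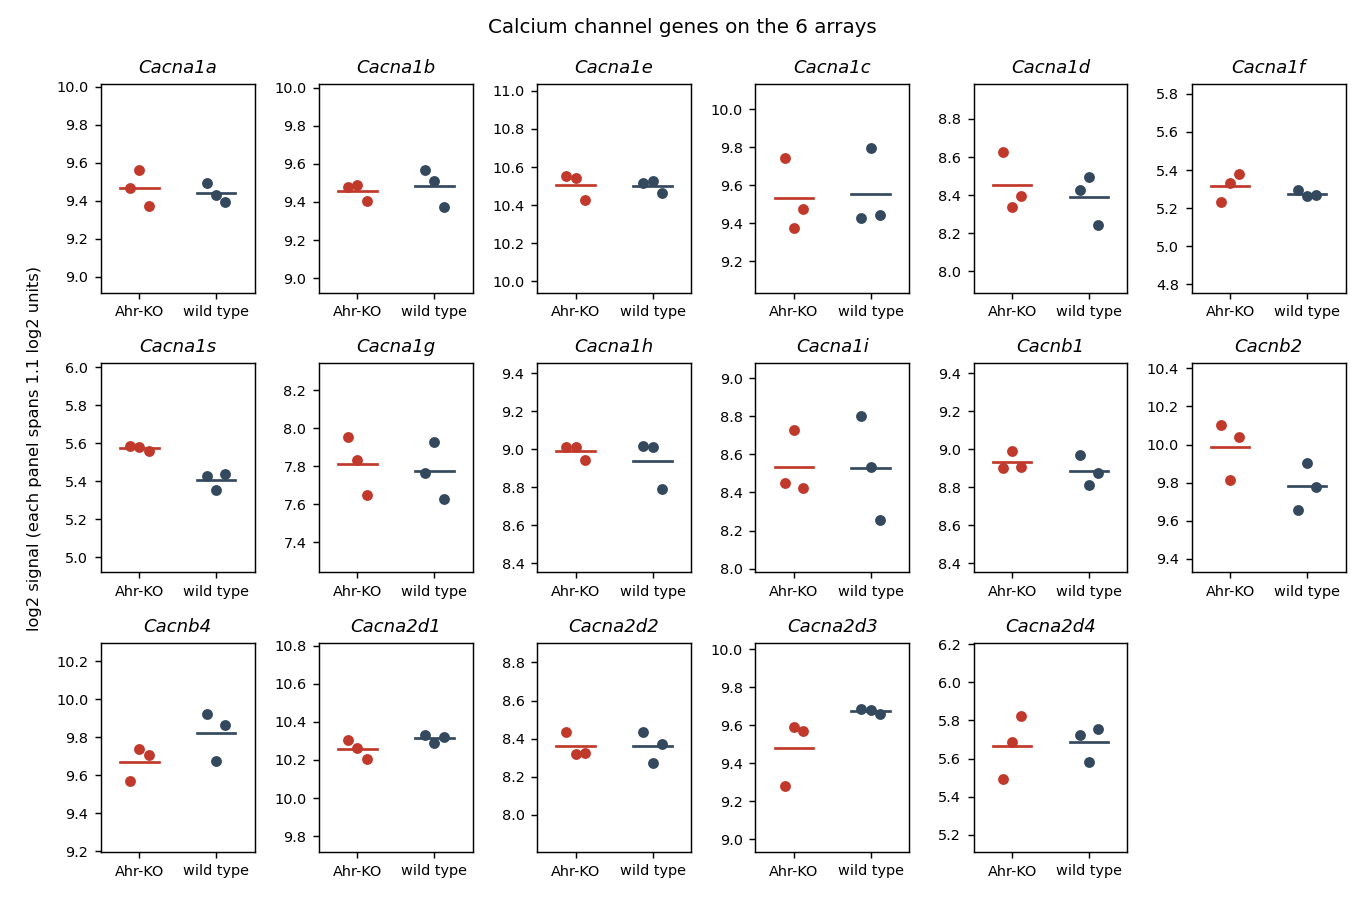
Log2 signal (y axis, each panel spanning 1.1 log2 units) of the 17 calcium channel genes on 3 Ahr-KO and 3 wild-type arrays, with points for arrays and lines for group means. The genotypes are apart in Cacna1s (5.56 to 5.59 in Ahr-KO, 5.35 to 5.44 in wild type) and Cacna2d3 (9.28 to 9.59 in Ahr-KO, 9.66 to 9.69 in wild type), and Cacna1c is high on 1 array of each.

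The alpha2delta subunits sit outside the membrane, raise the number of channels at the surface and take part in synapse formation. Cacna2d1, a binding site of the drug gabapentin, read 10.30, 10.26 and 10.20 log2 on the Ahr-KO arrays, against 10.33, 10.29 and 10.32 log2 on the wild-type arrays, with overlap at the edge of the groups and a difference of -0.06 ± 0.07 log2 (SE, 95% interval -0.22 to 0.10). Cacna2d2 read 8.44, 8.32 and 8.32 log2 on the Ahr-KO arrays, against 8.43, 8.27 and 8.37 log2 on the wild-type arrays, with overlap and a difference of 0.0014 ± 0.08 log2 (SE, 95% interval -0.18 to 0.18). Cacna2d3 read 9.28, 9.59 and 9.57 log2 on the Ahr-KO arrays, against 9.69, 9.68 and 9.66 log2 on the wild-type arrays. All Ahr-KO arrays lay below all wild-type arrays, with Ahr-KO array 1 the lowest by far, and the difference was -0.19 ± 0.10 log2 (SE, 95% interval -0.41 to 0.03, limma unadjusted p = 0.0771, adjusted p = 0.817). Without Ahr-KO array 1 it was -0.09 log2, and without that array and wild-type array 2 it was also -0.09 log2. Without Ahr-KO array 2 it was -0.25 log2, with an unadjusted p of 0.0457 and an adjusted p of 0.683 (limma). Cacna2d4, best known from the retina, read 5.49, 5.69 and 5.83 log2 on the Ahr-KO arrays, against 5.72, 5.58 and 5.75 log2 on the wild-type arrays, below the median of the genes on all 6 arrays, with a difference of -0.02 ± 0.10 log2 (SE, 95% interval -0.25 to 0.21).

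Genes that anchor, tune or neighbour these channels were examined as a list of 69 entries, of which 62 were tested. Of these 62 genes 0 had an adjusted p under 0.05. At an unadjusted p under 0.05 there were 3, or 4.84%, with 2 higher and 1 lower in Ahr-KO, beside 3.53% and 2.65% of all genes. The genotypes did not overlap for 8, or 12.9%, beside 11.9% of all genes. The median difference over the list was 0.02 log2.

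Sptbn4 had the lowest p of the list. It encodes beta-IV spectrin, which holds sodium channels at the axon initial segment and at nodes together with ankyrin-G. It read 6.91, 6.88 and 6.84 log2 on the Ahr-KO arrays, against 7.25, 7.23 and 7.17 log2 on the wild-type arrays. All Ahr-KO arrays lay below all wild-type arrays, 1.26-fold lower in Ahr-KO with a difference of -0.34 ± 0.07 log2 (SE, 95% interval -0.50 to -0.18, limma unadjusted p = 0.00119, adjusted p = 0.769). The difference was -0.36 to -0.32 log2 over 14 alternative settings, all with an unadjusted p under 0.05 and none with an adjusted p under 0.539. Smaller differences were measured for the genes of other proteins of the initial segment. Ank3, for ankyrin-G itself, differed by 0.05 (95% interval -0.12 to 0.22) and Nfasc, for neurofascin, by 0.03 (-0.13 to 0.18) log2. Nrcam differed by 0.02 (-0.15 to 0.19) and Scn8a by -0.08 log2. Of the remaining anchors and adhesion partners, Ank2 differed by -0.04 and Cntn1 by 0.02 log2. Cntn2 differed by -0.21 log2 (95% interval -0.49 to 0.08), with overlapping groups. The sodium channel pore Scn1a, described above, differed by -0.23 log2.

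Cbarp encodes a protein that inhibits calcium channels by binding their beta subunits. It read 10.46, 10.56 and 10.47 log2 on the Ahr-KO arrays, against 10.42, 10.18 and 10.16 log2 on the wild-type arrays. The lowest Ahr-KO array lay just above the highest wild-type array, with a difference of 0.24 ± 0.09 log2 (SE, 95% interval 0.04 to 0.45, limma unadjusted p = 0.0258, adjusted p = 0.797). Tpcn1, a cation channel of endosomes and lysosomes from the same superfamily, read 8.75, 8.76 and 8.66 log2 on the Ahr-KO arrays, against 8.49, 8.62 and 8.50 log2 on the wild-type arrays. The groups did not overlap, with a difference of 0.19 ± 0.08 log2 (SE, 95% interval 0.02 to 0.36, limma unadjusted p = 0.0359, adjusted p = 0.797). Neither gene kept an unadjusted p under 0.05 in all settings, with 10 of 14 for Cbarp and 8 of 14 for Tpcn1.

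The other partners are given by group, with examples. Among the 8 partners without overlap, Prkaca (0.16), Catsper3 (0.15), Tmem28 (0.14) and Nedd4l (0.11 log2) were also higher on all Ahr-KO arrays. Akap5 (-0.14 log2) was lower on all of them. Catsper3 read below the median of the genes on all 6 arrays. The 8 gamma subunit genes Cacng1 to Cacng8, most of which serve AMPA receptors, differed by -0.09 to 0.10 log2. The 4 FGF homologous factors, which bind the tail of sodium channels, differed by -0.08 to 0.14 log2. Of the 9 genes of the release site the scaffold Rims1 differed by -0.05 and Bsn by 0.11 log2, and Stx1a had the interval -0.66 to 0.33. Of the 5 genes of the sodium leak channel complex, Nalcn differed by -0.0038, Unc79 by 0.02 and Unc80 by -0.05 log2. Fam155a differed by 0.05 log2, and Tmem28, named above as without overlap, also belongs to this group (0.14 log2). Of kinases and phosphatases that act on the channels, Camk2a differed by 0.0067, Ppp3ca by 0.04 and Prkaca by 0.16 log2. The 3 calcium sensors differed by -0.02 to 0.23 and the 8 adaptors by -0.13 to 0.12 log2. The 4 genes of inhibitors, Cbarp among them, differed by -0.19 to 0.24 log2. The 7 anchors and adhesion partners, with Sptbn4, differed by -0.34 to 0.05 log2. The 7 other pores of the list, with Tpcn1, differed by -0.02 to 0.19 log2.

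**Figure D5:**
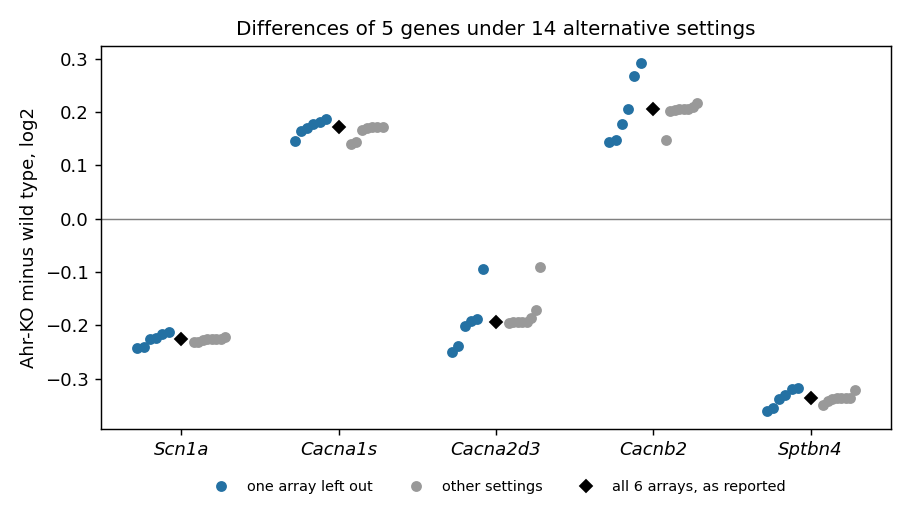
Difference between genotypes (y axis, Ahr-KO minus wild type, log2) of Scn1a, Cacna1s, Cacna2d3, Cacnb2 and Sptbn4 (x axis) with all 6 arrays (black diamonds), with 1 array left out (blue) and under the other settings (grey). The setting that drops dim genes has no value for Cacna1s. Scn1a (-0.24 to -0.21) and Sptbn4 (-0.36 to -0.32) move little, while Cacna2d3 runs from -0.25 to -0.09 and Cacnb2 from 0.14 to 0.29.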

How the data were processed

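RNA of 6 hippocampi, 3 Ahr-KO and 3 wild type, was extracted with Trizol and labelled with a whole-transcript kit per the labels' protocols, and each was measured on 1 array. The authors deposited log2 signals, 1 for each probe set and array, made with RMA and Affymetrix Expression Console (both named, unversioned, per the submitters' processing notes). RMA equalizes the arrays, so shifts in total RNA cannot be seen and folds may be understated. Probe-level values, detection calls and scan dates were not used here, so batches were not examined. The genome build of the probe sets is not given in the sources used here.

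Of 41345 rows, 23521 had 1 gene symbol, 1814 several and 16010 none. Entrez IDs gave 23328 of these rows their current RefSeq symbol (GRCm38.p6). The brightest probe set per gene gave 22180 genes, with no filter on dim ones. Genotypes were compared on all genes with limma 3.58.1 in R 4.3.3 (lmFit, eBayes without trend, two-sided, Benjamini-Hochberg, threshold 0.05, 4 residual and 4.33 prior degrees of freedom). The script was tested on simulated data. The number of arrays limits the precision. An exact permutation test of 3 against 3 arrays was not used, as its smallest p lies above the threshold. Same-numbered arrays come from different mice, so the numbers were not taken to pair them. The deviations of same-numbered arrays from the group means correlated at -0.15, -0.22 and 0.05. These values cannot show whether such mice shared a litter or a processing day.

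The genes, the partner list, the markers and the alternatives were chosen with earlier results of these data known. Values on every array are given for genes without overlap or with an unadjusted p under 0.05, for the neuronal pores and for the auxiliary subunits, and for the partner list where the unadjusted p was under 0.05. Scn7a, Scn9a, other partners, Pvalb and the single striatal markers were named after their values were seen. Alternatives covered the variance model, array weights, normalization, dim probe sets, probe set averaging, a replicate block and leaving out arrays. Figures were drawn with matplotlib 3.10.9.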

Additional observations from a re-analysis of the deposited data

How the results depend on the processing

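Over 14 alternative settings no sodium channel, calcium channel or partner gene had an adjusted p under 0.05. Over all genes 2 passed with an intensity trend in the variance and 0 in the others. With a replicate block, used although the numbers were not taken to pair the mice, 1 sodium and 0 calcium channel genes had an unadjusted p under 0.05. The count of sodium channel genes at an unadjusted p under 0.05 was 1 to 2 when single arrays were left out, with Scn1a among them each time. The count of calcium channel genes, 1 with all arrays, was 0 to 2 when single arrays were left out, 2 with an intensity trend and with array weights, and 0 with renewed quantile normalization, among genes at or above the median level, with the replicate block and without Ahr-KO array 1 and wild-type array 2, where choroid plexus genes were high. The calcium channel genes behind this count changed, and Cacna1s was not among them when any single array was left out. Without Ahr-KO array 2 and with an intensity trend they were Cacna2d3 and Cacnb2. Without wild-type array 2 they were Cacnb2 and Cacnb4, and with array weights Cacna1s and Cacnb2. The median difference of calcium channel genes was -0.0178 to 0.0457 log2 when single arrays were left out, and that of sodium channel genes -0.07 to -0.0055. Of the 28 genes 15 changed sign in at least 1 setting, none of them with an unadjusted p under 0.05 there, and 6 reached an unadjusted p under 0.05 in at least 1. The causes were not tested.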
